A study of Mus musculus with 12 samples.

Results

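The comparison described here sets mice without Stat5a and Stat5b against wild-type mice, none of which were given growth hormone (GH). It takes the 6 of the series' 12 samples whose source name is KO or WT alone, 3 knockout (KO) and 3 wild-type (WT) animals, and describes all non-control probe sets, 45037 of 45101. The other 6 samples are 3 KO and 3 WT animals given GH, and they enter below through the shared estimate of spread and as a second set of animals. Each array holds total RNA of skeletal muscle, labelled with biotin and read in 1 colour on an Affymetrix mouse array. The values are signals from the MAS5 software, which are linear intensities. The labels place the loss of the 2 Stat5 genes in blood cells, although the RNA is from muscle. They give no Cre driver, deleted exons, strain, sex, age, named muscle or GH dose. Titles carry 1 animal number per array, so arrays were taken as separate animals, and the numbers 1 to 3 used below only name arrays.

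STAT5A and STAT5B are transcription factors that wait in the cytoplasm. When GH binds its receptor, the kinase JAK2 at the receptor phosphorylates them, and they move to the nucleus and bind DNA at sites with the letters TTCNNNGAA. Their best known targets in liver and muscle are Socs2 and Cish, inhibitors that switch the receptor off again, and Igf1, the growth factor through which much of GH action runs. Skeletal muscle is a mix of slow fibres, which contract slowly and resist fatigue, and fast fibres, and each kind has its own myosins, troponins and calcium pumps.

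The RNA was that of muscle: the fast myosin heavy chain Myh4 had a signal of 51688 to 61824 on the 6 arrays. Of the blood cell markers on the array, 2 of 10 lymphocyte genes, 1 of 4 red cell genes, 6 of 8 neutrophil genes and 12 of 13 macrophage genes were above the level needed for testing. Median signal was 80.5 to 87.3 on WT and 79.3 to 92.4 on KO arrays. The 3 prime over 5 prime ratios, a sign of RNA quality, were 0.805 to 0.855 and 0.812 to 0.864 for actin. None of 5 such measures differed between KO and WT by an exact permutation test, which cannot go below p = 0.1 with 3 arrays against 3. Poly-A control transcripts had a signal of 151.0 to 173.4 on these 6 arrays and of 486.6 to 533.4 on the 6 arrays with GH. WT 1 and KO 3 stood apart from the others of their groups, with array weights of 0.319 and 0.421, the lowest of the 12. They lay at the ends of the first 2 principal components of the 6 arrays, KO 3 at -30.6 on the first and WT 1 at -27.7 on the second. The counts of genes higher, genes lower and slow fibre genes higher are given below also without this pair. Most other counts are given only with it. The pair was set apart only once the data had been seen.

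Of 18193 genes with a probe set of their own, 12654 were bright enough to test. Signals were tested as log2(signal + 25) with limma, and a gene is said to have risen or fallen where its p adjusted by Benjamini-Hochberg over all 12654 genes was below 0.05. Without GH, 98 genes were higher in KO, 0.774% of those tested, and 86 were lower, 0.68%, so that 1.45% were called. Without WT 1 and KO 3, 156 were higher and 121 lower. The change was at least 2-fold in 25 of the 98 and in 25 of the 86. The KO and WT arrays did not overlap for any of the 184. Over all genes tested there was no overlap for 13.2%, with KO higher for 6.2% and lower for 7.03%. The fit used all 12 arrays to estimate the spread, and the arrays with GH varied less: the median standard deviation of log2 values over genes was 0.177 in WT and 0.166 in KO, and with GH 0.135 in WT and 0.0997 in KO. With the spread taken from the 6 arrays without GH alone, 23 genes were higher (0.182%) and 16 lower (0.126%), and all 39 (0.308%) were among the 184. For each gene below, the adjusted p is that of the 12-array fit. For some genes the p of the 6 arrays alone is given beside it. All 39 genes called in both fits are named as such below. Every other gene said to have risen or fallen without GH passed in the 12-array fit only. Fold changes are on the log2(signal + 25) scale, which understates those of dim genes, and ± after a log2 fold change is its standard error.

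Stat5b, which fell further than Stat5a, had a signal of 2955, 2640 and 2866 in WT and of 497, 372 and 415 in KO. The groups lay far apart, and the mean in KO was 15.2% of WT. The log2 fold change was -2.66 ± 0.107 (adjusted p = 1.87e-09, and 9.83e-06 with the 6 arrays alone). A second Stat5b probe set went from a mean of 939 to 141. Stat5a had a signal of 730, 589 and 561 in WT and of 361, 232 and 170 in KO. The groups did not overlap, but the highest KO array was closer to WT than for Stat5b. The mean fell to 40.6% of WT, and the log2 value fell by 1.27 (standard error 0.208, adjusted p = 0.00483, and 0.0576 with the 6 arrays alone), and the second Stat5a probe set was at 39.8%. The arrays with GH showed the same order, with Stat5b at 1694 to 1896 in WT and 333 to 378 in KO. Since the labels do not say which exons were removed, the signal that remained cannot be assigned to intact transcripts.

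**Figure D1:**
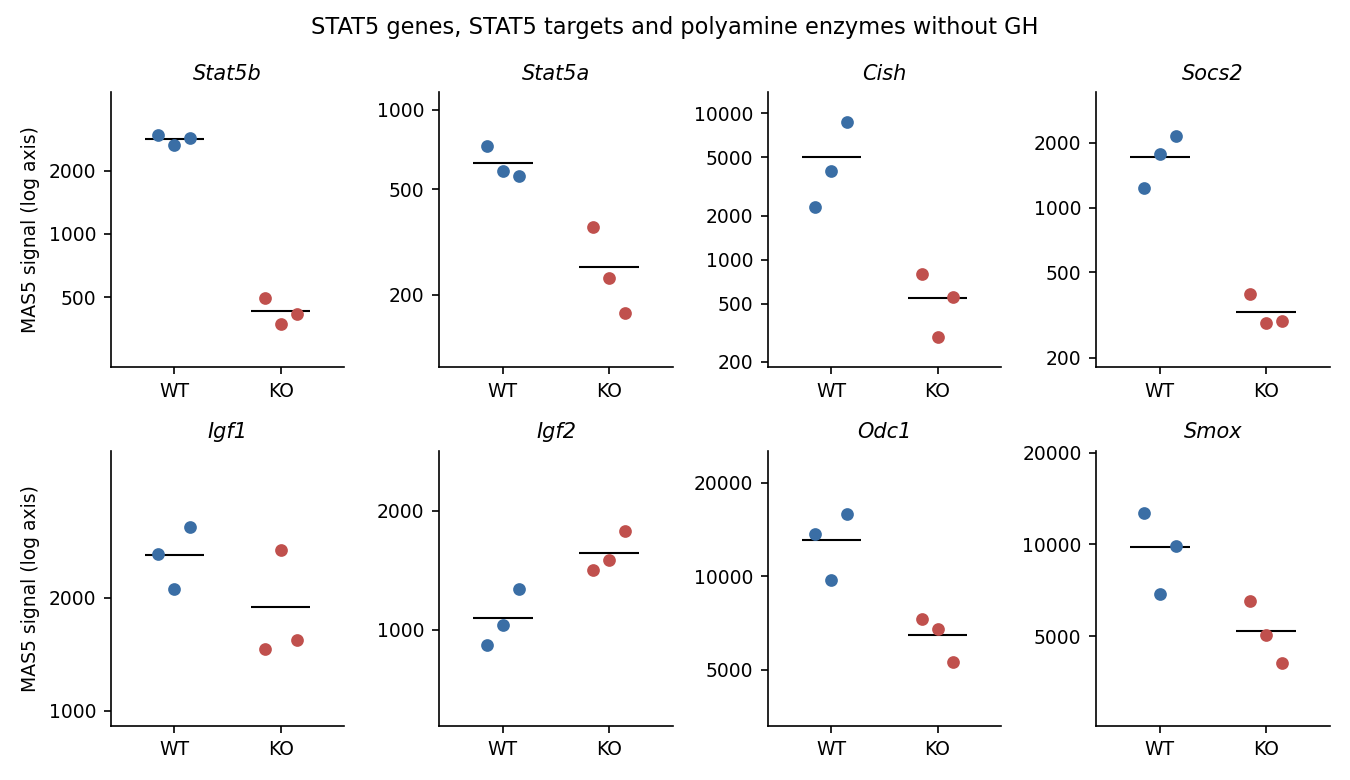
MAS5 signal on a log axis in 3 WT (blue) and 3 KO (red) arrays without GH for 8 genes, 1 point per array, with a bar at the arithmetic mean. Stat5b, Stat5a, Cish, Socs2, Odc1 and Smox were lower and Igf2 higher in every KO array than in every WT array, while the groups overlapped for Igf1.

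Of 18 genes known as STAT5 targets, 3 fell, Cish, Socs2 and Gadd45g, and none rose. Over all genes tested 0.68% fell and 0.774% rose, and these shares are the background for every list below. The median of the list was -0.01 against -0.00 for all genes. By limma 8 of the 18 had an unadjusted p below 0.05, 44.4% against 11.7% of all genes. Socs2, which blocks the GH receptor, had a signal of 1240, 1776 and 2156 in WT and of 396, 290 and 297 in KO. The KO arrays were tight and well below every WT array, at 19.0% of the WT mean (log2 fold change -2.29 ± 0.159, adjusted p = 1.74e-06, and 0.00116 with the 6 arrays alone). Of its 6 probe sets, 5 were lower and the dimmest was at 110% of WT. Cish, another inhibitor of cytokine receptors, varied widely among the WT arrays: its signal was 2274, 4019 and 8725 in WT and 799, 295 and 554 in KO. The lowest WT array was still 2.85 times the highest KO array. The log2 fold change was -3.02 ± 0.461 (adjusted p = 0.0134), but with the 6 arrays alone the adjusted p was 0.27. Gadd45g, a stress protein that slows the cell cycle, fell from 2788, 1982 and 1561 to 1532, 1114 and 1000 (adjusted p = 0.0474). That call was lost without WT 1, WT 2, KO 2 or KO 3, with adjusted p of 0.0915, 0.082, 0.156 and 0.156. The other 15 targets did not pass. Among them were Socs1 at -0.70 ± 0.181 (adjusted p = 0.077), Cdkn1a at -0.50, Ccnd1 at 0.44 and Socs3 at 0.52. The other 2 probe sets of Socs3 were at 0.91 and 0.75, with adjusted p over all probe sets of 0.00651 and 0.0205 by limma.

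The motif TTCNNNGAA, searched as those letters on both strands (the motif reads the same on each), was looked for in RefSeq promoter windows of build GRCm38.p6. A window runs from 250 bases before a transcript's start to 50 bases from it. Among genes that fell, 62 had a window, and 7 of these held the motif, 11.3%, while 6 of the 72 genes that rose and had a window held it, 8.33%. Of all genes tested with a window the share was 8.19%, and 8.3% of all 32851 RefSeq windows held it. The 7 genes that fell with a match were 8430426J06Rik, Casp12, Cish, Dnajc27, Fgl2, Palld and Polk. Socs2 had no window in the reference used, so its promoter was not searched. Stretches of 3 of these windows are shown, those of the genes whose values are given here one by one. Capitals mark the motif. The stretch of Cish, at chr9:107296619-107296688 on the plus strand, holds a pair of matches, the first beginning at the start site and the other 11 bases after it. That of Casp12, at chr9:5345334-5345488 on the plus strand, holds a pair as well, and that of Fgl2, at chr5:21372597-21372685 on the plus strand, holds 1.
Cish: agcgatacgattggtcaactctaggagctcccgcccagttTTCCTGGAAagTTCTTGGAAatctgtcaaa
Casp12: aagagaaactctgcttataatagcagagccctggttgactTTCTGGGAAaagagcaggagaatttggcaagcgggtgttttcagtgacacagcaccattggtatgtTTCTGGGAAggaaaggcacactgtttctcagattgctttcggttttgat
Fgl2: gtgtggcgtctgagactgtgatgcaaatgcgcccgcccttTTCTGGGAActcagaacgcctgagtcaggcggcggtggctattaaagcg
These matches describe the letters of the windows only.

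Of 18 genes of GH receptor and JAK-STAT signalling, 2 fell (Stat5a and Stat5b) and 1 rose (Stat3), with a median of -0.03. Ghr, the GH receptor, had a signal of 8572, 6977 and 7698 in WT and of 8263, 8730 and 9235 in KO, and the groups overlapped (log2 fold change 0.18 ± 0.0833, adjusted p = 0.43). Jak2, the receptor's kinase, was at -0.33 (adjusted p = 0.309). Stat3, a related factor that serves interleukin-6 family cytokines, had a signal of 1589, 1829 and 1673 in WT and of 2052, 3518 and 3205 in KO. Every KO array was above every WT array, most in KO 2 and KO 3 (log2 fold change 0.74 ± 0.143, adjusted p = 0.0148, and 0.191 with the 6 arrays alone). Another probe set of Stat3 had a mean signal of 1166 in WT and of 3120 in KO and was at 1.41 ± 0.127 (adjusted p = 3.02e-05 over all probe sets, by limma). The call of Stat3 was lost without WT 3, KO 2 or KO 3, with adjusted p of 0.0559, 0.0687 and 0.0647.

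Among 23 genes of IGF and insulin signalling 2 rose, Igf2 and Grb10, and none fell. Igf1 had a signal of 2606, 2111 and 3081 in WT and of 1458, 2676 and 1542 in KO. KO 2 lay within the WT range, so the groups overlapped, and Igf1 did not pass (log2 fold change -0.49 ± 0.196, adjusted p = 0.335). All 4 of its probe sets had lower means in KO, from 60.7% to 92.1% of WT. Igf2, a growth factor of development and muscle regeneration, had a signal of 917, 1028 and 1270 in WT and of 1419, 1503 and 1776 in KO. The groups were next to each other without overlap (log2 fold change 0.54 ± 0.117, adjusted p = 0.0292, and 0.273 with the 6 arrays alone). The call of Igf2 was lost without WT 1, WT 2, KO 2 or KO 3, with adjusted p of 0.0768, 0.0797, 0.0744 and 0.113. Grb10, an adaptor that inhibits the insulin and IGF1 receptors, rose from 1767, 1630 and 1637 to 2020, 2352 and 2227 (log2 fold change 0.38 ± 0.0758, adjusted p = 0.0162). That call was lost without WT 3 or KO 2, with adjusted p of 0.0658 and 0.0918. Igfbp5, a binding protein for IGFs, was at -0.28 and Akt1, the kinase downstream, at -0.26, neither past the threshold.

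Polyamines are small charged molecules that growing cells need. Of 7 polyamine genes tested, 2 fell, Odc1 and Smox. Amd1, Sms and Paox were not analysed here. Odc1, the rate-limiting enzyme of polyamine synthesis, had a signal of 13698, 9702 and 15874 in WT and of 7285, 6762 and 5283 in KO. Its KO mean was 49.2% of WT with no overlap (log2 fold change -1.0 ± 0.147, adjusted p = 0.00218, and 0.065 with the 6 arrays alone), and its 3 probe sets lay between 45.1% and 51.3%. Smox, which oxidizes spermine to spermidine, had a signal of 12708, 6859 and 9907 in WT and of 6523, 5053 and 4065 in KO. The lowest WT array, WT 2, was just above the highest KO array, and the KO mean was 53.1% of WT (log2 fold change -0.89 ± 0.186, adjusted p = 0.0276, and 0.293 with the 6 arrays alone). The call of Smox was lost without WT 1, WT 3, KO 2 or KO 3, with adjusted p of 0.0617, 0.108, 0.0889 and 0.0892. The other 5 genes did not pass, among them Azin1, which protects Odc1, at -0.23, Srm at -0.04 and Oaz2 at 0.17.

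The 3 largest rises in KO were of slow fibre genes, Myh7, Tnnc1 and Tnni1, and they came with a wide spread among the WT arrays. Of 16 slow fibre genes, 7 rose and none fell, against 0.774% of all genes that rose, and the list's median was 0.63. Myh7, the slow myosin heavy chain, had a signal of 124, 1133 and 192 in WT and of 3575, 4337 and 4231 in KO. WT 2 was the highest and WT 1 the lowest of the WT arrays, while the 3 KO arrays were close together. The lowest KO array was 3.16 times the highest WT array (log2 fold change 3.60 ± 0.62, adjusted p = 0.0262, and 0.361 with the 6 arrays alone). The slow troponin genes followed the same order of arrays. Tnnc1 had a signal of 213, 1309 and 415 in WT and of 4141, 3948 and 5108 in KO (log2 fold change 3.08 ± 0.49, adjusted p = 0.0159). Tnni1 had a signal of 136, 827 and 287 in WT and of 2568, 2333 and 3805 in KO (3.03 ± 0.484, adjusted p = 0.0152). Tnnt1 had a signal of 223, 1312 and 535 in WT and of 2551, 2938 and 3442 in KO (2.39 ± 0.472, adjusted p = 0.0474). For all 3 the WT arrays ran from WT 1 through WT 3 to WT 2, and no WT array reached a KO array. With the 6 arrays alone, the adjusted p of the 3 troponins lay between 0.292 and 0.402.

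Myl2, the slow regulatory light chain, had a signal of 2033, 5460 and 2539 in WT and of 7992, 9026 and 10482 in KO (log2 fold change 1.57 ± 0.27, adjusted p = 0.0141, and 0.273 with the 6 arrays alone). Atp2a2, the slow fibre calcium pump, had a signal of 3777, 5496 and 3864 in WT and of 6344, 7244 and 8040 in KO (0.73 ± 0.124, adjusted p = 0.00586, and 0.105 with the 6 arrays alone). WT 2 was again the highest WT array for both. Of 6 probe sets of Atp2a2, the log2 fold changes ran from -0.15 to 0.73. Sln, sarcolipin, which regulates such pumps, varied least of the 7 among the WT arrays: its signal was 317, 461 and 372 in WT and 973, 726 and 966 in KO. It was the 1 slow fibre gene past the threshold also with the 6 arrays alone (1.16 ± 0.176, adjusted p = 0.00228, and 0.0207). The remaining 9 did not pass. Myl3 was at 0.41 (adjusted p = 0.703), Csrp3 at 0.72, Ankrd2 at 0.54, Myoz2 at 0.26 and Myh7b at -0.19. Of the 16 slow fibre genes, 13 had a positive log2 fold change, as had 6241 of all 12654 genes tested. Myl3 on WT 2 had a log2 value of 14.09, above the 13.48 to 13.74 of the KO arrays. Ankrd2 was lowest on KO 3, with a signal of 2403 against 5794 and 6747 on KO 1 and KO 2. Its lowest adjusted p with 1 array left out was 0.000948. Without WT 3, 2 slow fibre genes passed, Atp2a2 and Sln. Without KO 3, 3 did, these and another that had not passed with all arrays. Tnnc1, Tnni1 and Myl2 were lost without either, with adjusted p of 0.0591 to 0.0692. Myh7 and Tnnt1 were lost also without KO 1 or KO 2, with adjusted p over the 4 arrays of 0.0604 to 0.0883 and of 0.0817 to 0.148. Without WT 1 and KO 3 together, 6 slow fibre genes passed. In bulk muscle, more slow fibres and more slow fibre RNA per fibre cannot be told apart. Which muscle was taken, and whether it was dissected alike in each animal, is not given in the sources used here.

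**Figure D2:**
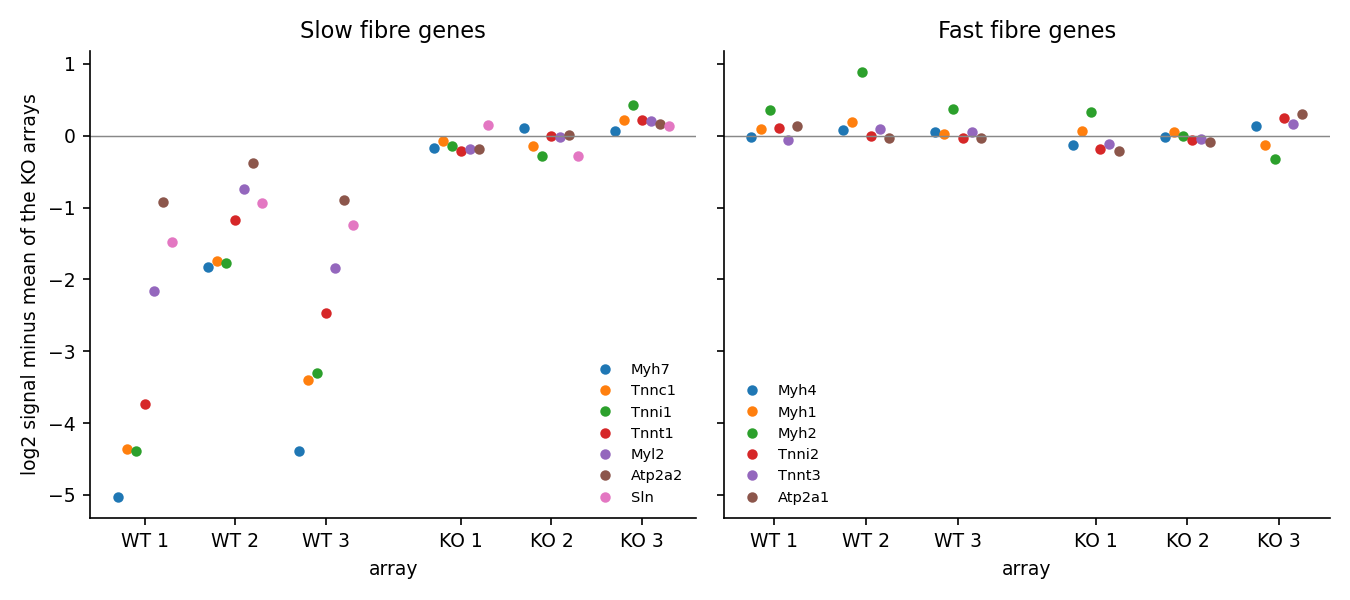
Log2 signal of 7 slow fibre genes (left) and 6 fast fibre genes (right) on each array without GH, with the mean of the 3 KO arrays of each gene set to 0, 1 colour per gene. The slow fibre genes shown are those that rose, so their place below 0 on all 3 WT arrays follows from that choice. They were least below 0 on WT 2. The fast fibre genes stayed near 0 on all 6 arrays except Myh2.

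Of 16 fast fibre genes none passed by limma in either direction, 1 had an unadjusted p below 0.05 (Myh2), and the median was -0.03. Myh4, the myosin of the fastest fibres, had a signal of 55844, 59420 and 58402 in WT and of 51688, 55730 and 61824 in KO (log2 fold change -0.04 ± 0.113). Myh1 was at -0.10 ± 0.0855. Myh2, the myosin of fast oxidative fibres, had a signal of 30416, 43748 and 30751 in WT and of 29731, 23574 and 18844 in KO. The WT arrays were above the KO arrays by a narrow margin, highest in WT 2, and Myh2 did not pass (-0.54 ± 0.152, adjusted p = 0.109). The summed signal of the 16 fast genes was 755944 to 779101 in WT and 679334 to 859847 in KO. That of the 16 slow genes was 72189 to 101578 in WT and 104191 to 120884 in KO, without overlap. Of 25 regulators of fibre type, none passed by limma and 7 had an unadjusted p below 0.05. Among them were Mef2d at 0.30, Esrra at -0.36 and Rcan2 at -0.37.

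A slow fibre index, the mean log2 value of the 16 slow fibre genes, put a number on the spread between WT arrays. It was 9.85, 11.0 and 10.25 in WT and 11.37, 11.5 and 11.53 in KO. With GH it was 11.21 to 11.24 in WT and 11.48 to 11.56 in KO, so all 3 WT arrays without GH lay below the other 9, WT 1 farthest. The standard deviation of the index was 0.58 in WT without GH and 0.02 to 0.09 in the other groups. The spread of the index within groups was thus mainly that of the 3 WT arrays without GH, and the values below rest on them. With the index as a covariate in the 12-array fit, 20 genes were higher (0.158%) and 24 lower (0.19%) in KO, 0.348% in all, and 17 of the 184 genes kept their call in the same direction. Single arrays moved these counts: they were 9 and 13 without WT 1, 3 and 12 without WT 2, 36 and 49 without KO 1, 35 and 29 without KO 2, and 48 and 49 without KO 3. With the 6 arrays alone and the index, 1 gene was called, and it was lower. The standard errors grew, by a median of 1.83 times over the genes that rose and over those that fell.

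The sizes moved less than the calls. However, the WT and KO arrays without GH shared no index value. An equal index therefore extends slopes set mainly by the WT arrays beyond the range of those arrays. For that reason the shares kept cannot show how much of a change went with fibre content. All 98 genes that rose stayed positive at an equal index, and 85 of the 86 that fell stayed negative. More than 50% of the log2 change was kept by 81 of the 98 and by 67 of the 86, and the median share kept was 91.5% and 86.1%. The 17 that kept their call included Stat5b (-2.44), Socs2 (-2.59), 1700001O22Rik (-3.25), Npnt (-1.44), Casp12 (-1.60), Fgfbp1 (2.25), Gamt (1.15), Fos (2.16), Slc25a25 (1.04) and Togaram2 (1.67). Cish kept its size (-3.33) without passing (adjusted p = 0.235). The slow fibre genes themselves are part of the index, so their values at an equal index are a description: Myh7 went from 3.60 to 0.72, Tnnt1 from 2.39 to 0.12, Myl2 from 1.57 to 0.17 and Sln from 1.16 to 0.69. Of the polyamine genes, Smox went from -0.89 to 0.01 and Odc1 from -1.0 to -0.42. Myl3, also part of the index, had not passed before and was named after its values were seen. Its value at an equal index was -1.20 (adjusted p = 0.00416), which is likewise only a description.

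**Figure D3:**
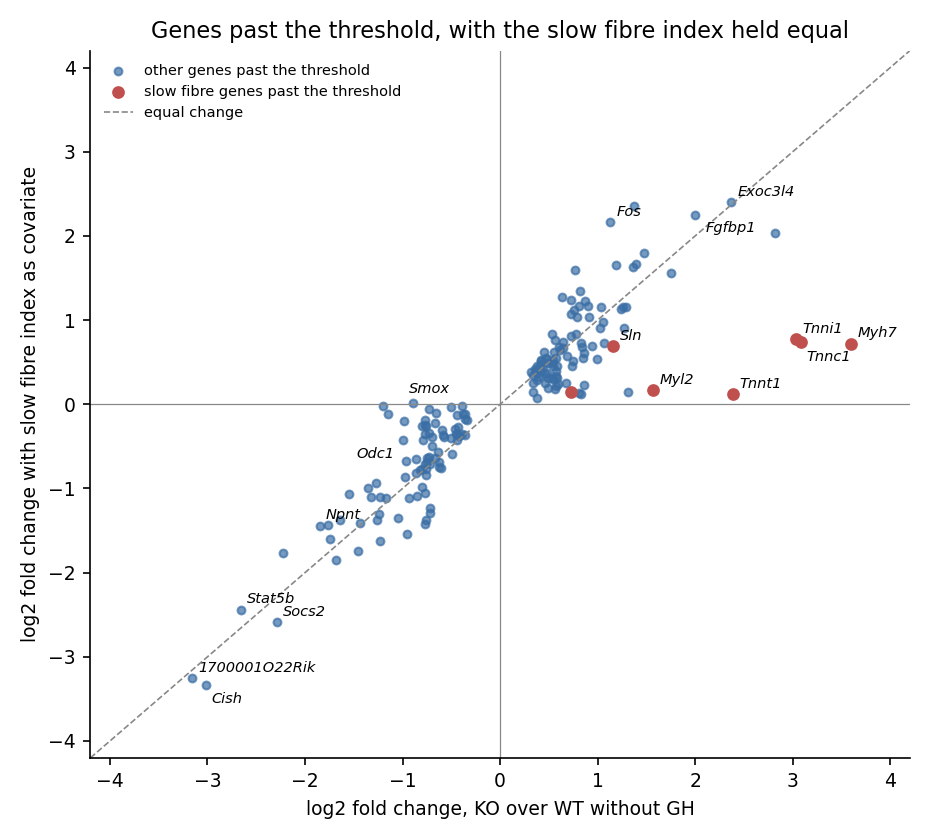
Log2 fold change of KO over WT without GH for the 184 genes past the threshold (x axis) against the same with the slow fibre index as a covariate (y axis), with slow fibre genes in red and the dashed line at equal change. Most points lie near the line, while Myh7, Tnnc1, Tnni1, Tnnt1 and Myl2 fall toward 0 on the y axis and Smox lies at 0.01.

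The slope of the index, the log2 change of a gene for each unit of index within a group, passed the threshold for 30 genes, 0.237% of those tested, 21 of them positive (0.166%). Of these, 6 were slow fibre genes, such as Myh7 with a slope of 2.63 and Tnnc1 with 2.13. Because slow fibre genes make up the index, their slopes are a description. The genes with the smallest p outside the list were Tpbgl (-1.84), Adh1 (1.14), Malat1 (1.43), Lmod2 (0.86), Eif4ebp2 (1.13), Cd82 (-0.75), Mgll (0.77), Lyz1 (-1.16), Ybx2 (-0.98) and Cd59a (-1.27). Each slope is that of the 1 probe set that stood for its gene. In a fit of all probe sets, the log2 fold change of Malat1 had a standard error of 0.325 there and of 0.0787 to 0.192 elsewhere. For Cd59a the values were 0.288 and 0.124, for Eif4ebp2 0.237 and 0.103 to 0.409, and for Mgll 0.159 and 0.148 to 0.203. For Cd82 and Lyz1 the other probe sets had the larger standard errors. Slopes of the other probe sets are not given here. Tpbgl had a signal of 4757, 1037 and 2508 in WT and of 2843, 3405 and 2288 in KO, so that the WT arrays spanned the KO arrays. Lyz1, a lysozyme, had a signal of 10776, 3984 and 5438 in WT, highest on WT 1. Its other probe sets had mean signals of 2260 and 39.2 in WT and of 1973 and 49.8 in KO. The part of related genes in the Lyz1 signal was not tested. Of the 184 genes, 6 had a slope past the threshold: 5 were among the slow fibre genes that rose, and the other was Smox (-0.83, adjusted p = 0.045). The count of slopes rested on single arrays: it was 14 without WT 1, 23 without WT 2, 198 without WT 3, and 49, 39 and 74 without KO 1, KO 2 and KO 3.

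In both the 12-array and the 6-array fit 23 genes rose. Fgfbp1, a secreted carrier of fibroblast growth factors made by muscle fibres, had a signal of 78.3, 64 and 85.3 in WT and of 405, 456 and 292 in KO. The lowest KO array was 3.42 times the highest WT array (log2 fold change 2.0 ± 0.171, adjusted p = 1.36e-05, and 0.00251 with the 6 arrays alone). Gamt, the enzyme of the last step of creatine synthesis, had a signal of 1132, 1255 and 1371 in WT and of 2885, 2944 and 3453 in KO. Both groups were tight, and KO was at 247% of WT (1.29 ± 0.1, adjusted p = 6.14e-06). Naprt, which makes NAD from nicotinic acid, rose from 178, 231 and 196 to 437, 550 and 585 (1.27 ± 0.139, adjusted p = 0.000136). Ache, acetylcholinesterase, which ends the signal at the neuromuscular junction, rose from 617, 716 and 559 to 1060, 1147 and 1018 (0.75 ± 0.0987, adjusted p = 0.000837).

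Slc8a3, a sodium-calcium exchanger, had a signal of 847, 1008 and 895 in WT and of 1592, 1815 and 1636 in KO (log2 fold change 0.86 ± 0.0908). Slc25a25, a mitochondrial carrier of ATP-magnesium and phosphate, had a signal of 1684, 1523 and 1493 in WT and of 3156, 3215 and 2583 in KO (0.91 ± 0.0961, adjusted p = 0.000105). In both cases the groups were far apart for their spread. Fzd9, a Wnt receptor, rose by 0.83 ± 0.124, Atp9a, a membrane transport ATPase, by 0.85, and Hs6st2, a heparan sulfate sulfotransferase, by 1.02. Mustn1, a small nuclear protein of muscle and bone, had a signal of 1853, 2246 and 2294 in WT and of 7219, 4077 and 4547 in KO (1.26 ± 0.168). Bex1 rose by 1.07 and Mlip, a partner of lamin A/C in muscle, by 0.57. The largest of these 23 rises were of 4930512H18Rik at 2.82 and of Exoc3l4 at 2.37. Exoc3l4 had a signal of 335, 268 and 212 in WT and of 981, 1307 and 2552 in KO, highest on KO 3. Serpinb1a, a protease inhibitor, rose by 1.75 on its brighter probe set and was at 0.08 on the other. The rest of the 23 were Togaram2 (1.39), Otud1 (1.36), Sh3rf2 (1.06), Kcp (0.94), Tsc22d4 (0.84), Tmem176b (0.60), and Junb and Sln, described with their lists.

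Of the 16 genes that fell in both fits, Stat5b and Socs2 have been described. 1700001O22Rik had the greatest fall of all genes tested: its signal was 1297, 1634 and 1704 in WT and 277, 106 and 110 in KO (log2 fold change -3.16 ± 0.25, adjusted p = 7.74e-06). Npnt, nephronectin, a matrix ligand of integrins, had a signal of 1576, 1223 and 1662 in WT and of 434, 399 and 342 in KO. It fell to 26.3% of WT with little spread in KO (-1.85 ± 0.124, adjusted p = 1.46e-06), and all 5 of its probe sets were lower. Casp12, a caspase of the endoplasmic reticulum, had a signal of 882, 817 and 967 in WT and of 249, 192 and 318 in KO (-1.74 ± 0.151, adjusted p = 1.57e-05). Gadl1, a decarboxylase that makes beta-alanine, fell from 828, 756 and 822 to 388, 182 and 146 (-1.76 ± 0.234). Acsl3, which activates long-chain fatty acids, fell from 591, 553 and 941 to 263, 154 and 196 (-1.64 ± 0.197). In each of these the highest KO array was below the lowest WT array.

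Dkk3, a secreted protein of the Dickkopf family, had a signal of 252, 365 and 620 in WT and of 132, 106 and 77.6 in KO (log2 fold change -1.68 ± 0.243, adjusted p = 0.00177). Slc30a2, a zinc transporter, fell from 744, 685 and 834 to 299, 282 and 336 (-1.23 ± 0.119). Tbc1d4, which holds glucose transporters inside the cell until insulin signals, had a signal of 1441, 1268 and 1423 in WT and of 581, 682 and 818 in KO. Its KO mean was 50.4% of WT (-0.97 ± 0.113, adjusted p = 0.000262). Hipk2, a nuclear kinase, fell from 5870, 4994 and 5617 to 3667, 3637 and 3614 (-0.59 ± 0.0726), with KO arrays almost equal. Also in this group were Armcx4 (-1.35), Mpnd (-0.80), Tmem267 (-0.77) and Marchf2, a ubiquitin ligase (-0.67). Marchf2 was lost without any 1 of WT 1, WT 2, WT 3, KO 1 or KO 2, with adjusted p of 0.0648 to 0.126. Its other bright probe set, with a mean signal of 2756 in WT and of 2574 in KO, was at -0.10 (adjusted p = 0.873 over all probe sets, by limma). Hmga2-ps1 (-1.05) is listed as a pseudogene and could share signal with its parent gene.

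Other genes among the 20 greatest rises or falls passed in the 12-array fit only. Kcnf1, a subunit of potassium channels, had a signal of 139, 126 and 342 in WT and of 36.4, 2.73 and 26.7 in KO, near the floor of the array (log2 fold change -2.23 ± 0.334, and adjusted p = 0.0606 with the 6 arrays alone). Neto2 fell by 1.55, Tiam1, an activator of the GTPase Rac, by 1.26, and Themis3 by 1.24. Slc15a5 was at -1.44 and Ankrd61 at -1.32. The call of Slc15a5 was lost without WT 1, WT 2, WT 3 or KO 2, with adjusted p of 0.0651 to 0.112. That of Ankrd61 was lost without WT 1, WT 3 or KO 2, with adjusted p of 0.051 to 0.0687. Cd28, a co-stimulatory receptor of T cells, had a signal of 117, 171 and 115 in WT and of 56.5, 43.4 and 29 in KO (-1.23 ± 0.241, adjusted p = 0.0152). It was lost without WT 2, KO 2 or KO 3, with adjusted p of 0.07, 0.0501 and 0.0572. The summed signal of the 2 lymphocyte markers tested was 263 to 594 in WT and 278 to 415 in KO, and their part in the result of Cd28 was not tested. Among the rises, Ak4, an adenylate kinase of mitochondria, went from 381, 231 and 135 to 498, 801 and 807 (1.48 ± 0.256, adjusted p = 0.00774). Tnfaip2 went from 3626, 2324 and 2113 to 5345, 7783 and 5132 (1.19 ± 0.188, adjusted p = 0.00498), and Tceal7 was at 1.31 in the 12-array fit and at 0.15 with the slow fibre index held equal. Pgpep1l was at 1.24 and Bcas1 at 1.37, while the other probe sets of Bcas1 were at -0.23 and 0.11. The call of Bcas1 was lost without WT 2, WT 3, KO 2 or KO 3, with adjusted p of 0.129 to 0.181.

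Of 13 genes of the neuromuscular junction, 2 rose, Fgfbp1 and Ache, and none fell. Musk, the kinase that clusters acetylcholine receptors, was at -0.61 (adjusted p = 0.076), Dok7, its activator, at -0.38 and Chrnb1, a receptor subunit, at 0.30. Of 23 immediate early genes, which cells switch on within minutes of a stimulus, 3 rose (Fos, Junb and Dusp1) and 1 fell (Egr1), with a median of 0.08. By limma 11 of the 23 had an unadjusted p below 0.05, 47.8% against 11.7% of all genes. Fos had a signal of 638, 287 and 581 in WT and of 905, 1202 and 1124 in KO (log2 fold change 1.13 ± 0.216, adjusted p = 0.0149, and 0.171 with the 6 arrays alone). Its lowest WT array was WT 2, and without KO 2 or KO 3 the adjusted p was 0.0704 and 0.0548. Junb, its partner in the AP-1 complex, had a signal of 330, 304 and 346 in WT and of 703, 859 and 548 in KO (1.03 ± 0.13, adjusted p = 0.000558, and 0.0366 with the 6 arrays alone). Dusp1, a phosphatase that turns off MAP kinases, rose from 4058, 3809 and 4168 to 5605, 5156 and 5330 (0.42 ± 0.067, adjusted p = 0.00426, and 0.141 with the 6 arrays alone). Egr1 fell from 1057, 673 and 715 to 530, 510 and 449 (-0.66 ± 0.136, adjusted p = 0.0208). That call was lost without KO 2 or KO 3, with adjusted p of 0.0591 and 0.084.

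Of 18 STAT3 and acute phase genes, 3 rose (Stat3, Junb and Lrg1) and 2 fell (Lifr and Fgl2). By limma 6 of the 18 had an unadjusted p below 0.05, 33.3% against 11.7% of all genes. Lifr, the receptor of leukemia inhibitory factor, had a signal of 2559, 2733 and 3403 in WT and of 1817, 1836 and 1165 in KO (log2 fold change -0.86 ± 0.149, adjusted p = 0.00724, and 0.107 with the 6 arrays alone). Fgl2, a fibrinogen-like protein, fell from 427, 388 and 401 to 263, 215 and 168 (-0.86 ± 0.155, adjusted p = 0.00891). Lrg1 rose by 0.32 ± 0.0747 (adjusted p = 0.0486) and was lost whichever of the 6 arrays was left out, with adjusted p of 0.0514 to 0.138. Of 17 interferon responsive genes 1 rose, Irf9, and 13 had a positive log2 fold change, with a median of 0.34. Over all genes tested 6241 of 12654 were positive. By limma 7 of the 17 had an unadjusted p below 0.05, 41.2% against 11.7% of all genes. Irf9, part of the complex that answers to type I interferon, had a signal of 188, 167 and 198 in WT and of 258, 276 and 376 in KO (0.64 ± 0.15, adjusted p = 0.0495). It was lost without WT 1, WT 2, WT 3, KO 2 or KO 3, with adjusted p of 0.0721 to 0.16. Of 17 heat shock genes 1 rose, the small heat shock protein gene Hspb6, from 20785, 20906 and 18536 to 28002, 25764 and 26766 (0.42 ± 0.0804, adjusted p = 0.014). Its adjusted p was 0.0736 without WT 3. The list's median was 0.21 and 15 of the 17 were positive. By limma 7 of these 17 also had an unadjusted p below 0.05, 41.2%.

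Of 18 genes of the ER stress response and the factor ATF4, 2 fell, Casp12 and Chac1, though the median was 0.07. Chac1, which breaks down glutathione, had a signal of 6087, 10640 and 11030 in WT and of 5794, 3381 and 4996 in KO. WT 1 was just above the highest KO array, and the call (log2 fold change -0.95 ± 0.212, adjusted p = 0.0486) was lost without WT 2, WT 3, KO 2 or KO 3, with adjusted p of 0.125, 0.151, 0.116 and 0.0975. Of 15 NRF2 antioxidant genes, 2 fell, Gclm and Hmox1. Gclm, a subunit of the enzyme that starts glutathione synthesis, had a signal of 1693, 1917 and 2133 in WT and of 1418, 1265 and 1365 in KO (-0.49 ± 0.0888, adjusted p = 0.00882, and 0.0509 without KO 2). Hmox1, heme oxygenase, had a signal of 454, 238 and 708 in WT and of 218, 169 and 156 in KO (-1.15 ± 0.259, adjusted p = 0.0446). It was at -0.11 with the slow fibre index held equal, and it was lost without WT 1, WT 3, KO 2 or KO 3, with adjusted p of 0.101 to 0.136.

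Myogenic and growth control genes changed in few cases. Of 16 myogenic regulators and satellite cell genes 1 rose, Myf6, the regulator most abundant in adult fibres, from 4258, 4599 and 4788 to 5572, 5499 and 6268 (log2 fold change 0.34 ± 0.0748, adjusted p = 0.0315). It was lost without WT 1, WT 2, KO 2 or KO 3, with adjusted p of 0.0547 to 0.107. Myod1 was at -0.36 and Myog at 0.46. Of 20 atrophy and autophagy genes none passed by limma and 7 had an unadjusted p below 0.05, among them Foxo1, which drives the breakdown program, at -0.50, and Ulk1 at -0.25. Of 16 myostatin and activin genes none passed and 1 had an unadjusted p below 0.05; Fst, an inhibitor of the pathway, was at 0.45 and Inhbb at -0.43. Of 8 embryonic and cardiac sarcomere genes none passed and 2 had an unadjusted p below 0.05. Of 17 glucocorticoid responsive genes none passed either, but 7 had an unadjusted p below 0.05 and the median was -0.21; Ddit4 was at -0.81 (adjusted p = 0.0602), Pdk4 at -0.78 (0.0612) and Fkbp5 at -0.61 (0.13). Of 17 clock genes none passed and 3 had an unadjusted p below 0.05. For all genes tested the share with an unadjusted p below 0.05 was 11.7%.

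Genes of energy supply were measured in 5 lists. In those of glycolysis and glycogen (19 genes), fatty acid oxidation (23), respiratory chain (29), citric acid cycle (17) and cholesterol (13), none passed by limma. The numbers with an unadjusted p below 0.05 were 2, 3, 0, 0 and 3. Their medians lay between -0.07 and 0.02. The respiratory chain genes were held in a narrow range, from -0.05 to 0.21, while fatty acid oxidation genes ran from -0.78 (Pdk4) to 0.25. Ucp3, a mitochondrial uncoupling protein, was at -0.57, Hk2, a hexokinase, at -0.22, and Cox6a2 at 0.21. Of 21 lipid synthesis genes 1 fell, Acsl3, and the median was -0.19; Scd1 was at -0.36 and Scd2 at -0.51. Of 14 growth arrest and cell cycle genes 1 fell, Gadd45g.

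**Figure D4:**
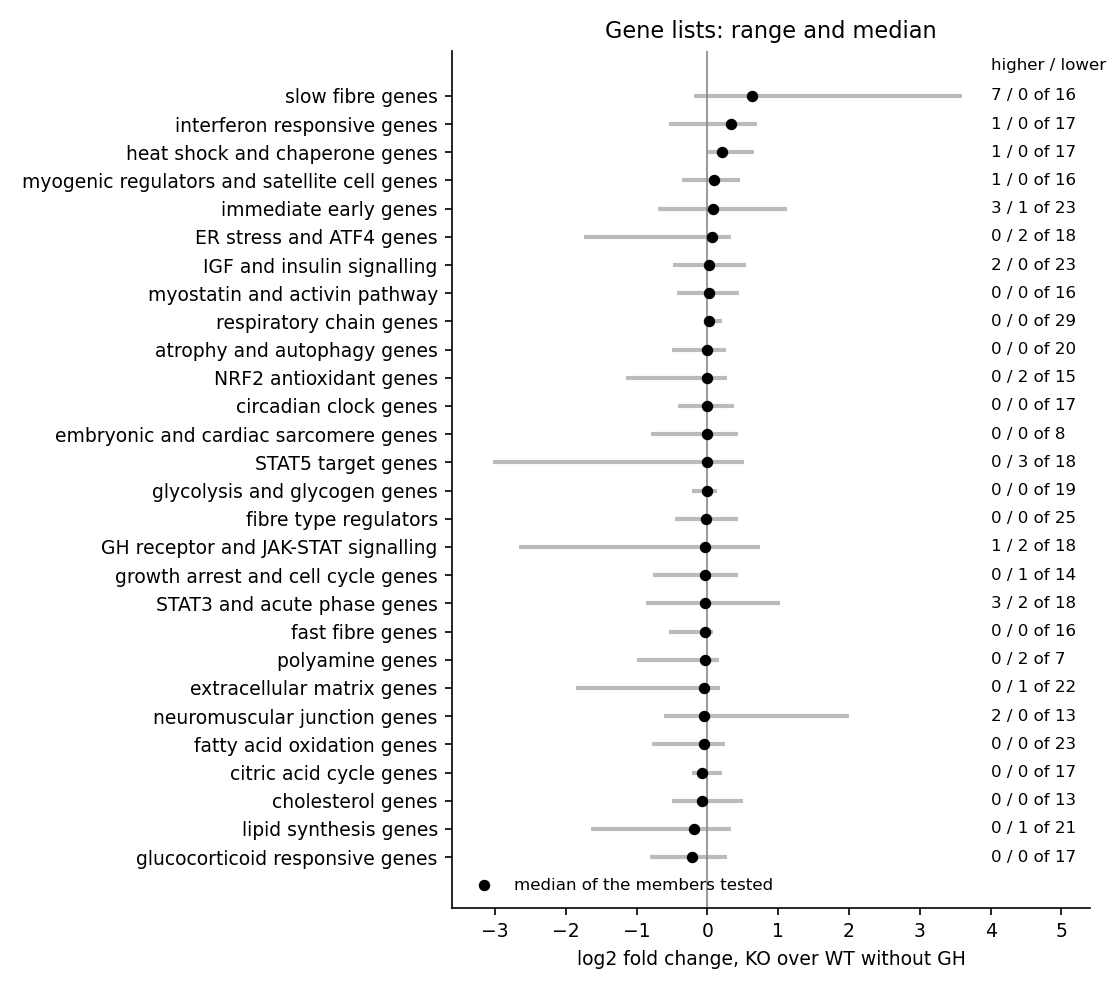
Range (grey bar) and median (black dot) of the log2 fold change of KO over WT without GH for the tested members of 28 gene lists, with the number of members higher, lower and tested at the right. The slow fibre list had the highest median, 0.63, and the most members past the threshold, 7 of 16, while the respiratory chain genes ran from -0.05 to 0.21.

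Of 22 extracellular matrix genes 1 fell, Npnt, and the median was -0.05; Col3a1 was at -0.24 and Timp1 at -0.76 (adjusted p = 0.0793). The 14 lists of markers of other cell types, muscle spindles and sex-linked genes held 1 call, in the adipocyte list. In the other 13 none passed by limma, and 0 to 2 members of each had an unadjusted p below 0.05. Retn, resistin, an adipocyte hormone, had a signal of 2006, 1665 and 1825 in WT and of 4621, 3106 and 2655 in KO (log2 fold change 0.87 ± 0.158, adjusted p = 0.00932, and 0.105 with the 6 arrays alone). The other 8 adipocyte markers did not pass, and their summed signal with Retn was 97470 to 118862 in WT and 104206 to 126121 in KO. All 12 macrophage markers were at or below -0.03, with a median of -0.21 and a summed signal of 13849 to 21391 in WT and 13160 to 18328 in KO. The summed signal of WT and KO overlapped for each marker list except neutrophils, for which 6 dim genes summed to 339 to 496 in WT and 291 to 331 in KO. Their part in the results above was not tested.

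The same genotype difference could be read in the animals given GH, which share no array with those described so far. There 306 genes were higher in KO (2.42%) and 267 lower (2.11%), 4.53% in all. Of the 98 genes that rose without GH, 50 also rose with GH, 51.0%, and 1 fell. Of the 86 that fell, 45 also fell, 52.3%, and 2 rose. The sign was the same for 86 of the 98 and for 81 of the 86, while 46.9% of all genes tested were positive with GH and 53.1% negative. The median log2 fold change went from 0.71 to 0.45 and from -0.77 to -0.53. Both comparisons used 1 pooled estimate of spread. The size of the genotype difference changed with GH for 118 genes (0.933%), 14 of them among the 184.

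Several of the genes called in both fits kept their direction in the second set of animals. Fgfbp1 had a signal of 98.2 to 113 in WT and 444 to 540 in KO with GH (log2 fold change 1.95, against 2.0 without). Gamt was at 1.08 with GH against 1.29, and 1700001O22Rik at -3.89 against -3.16. Stat5b was at -2.23 against -2.66. Cish with GH had a signal of 9274 to 11023 in WT and 3182 to 3587 in KO, a log2 fold change of -1.59 that did not pass (adjusted p = 0.104) although the arrays did not overlap. Myh7 had a signal of 2393 to 3040 in WT and 3914 to 4082 in KO, a log2 fold change of 0.59 (adjusted p = 0.713). The KO arrays of Myh7 were at a like level without GH, 3575 to 4337, and it was the WT arrays without GH that stood low. The difference of the genotype effect with and without GH did not pass for Myh7 (adjusted p = 0.249). The median of the 16 slow fibre genes was 0.27 with GH against 0.63 without. Sln alone among them passed the threshold with GH by limma (1.32, adjusted p = 0.000255). The pooled spread of genes such as Myh7 took in the WT arrays without GH. The standard deviation of Myh7 log2 values was 1.58 there, and with GH 0.18 in WT and 0.03 in KO. With GH every KO array was above every WT array for Myh7, Tnnc1 and Tnni1, none of which passed there. The share of all genes tested without overlap was 13.2% without GH and was not counted with GH. This order of arrays is therefore only a description. Log2 values of Tnnc1 were 12.09 to 12.17 in KO and 11.25 to 11.32 in WT. Not all went this way: Atp2a2 was at -0.32 with GH.

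**Figure D5:**
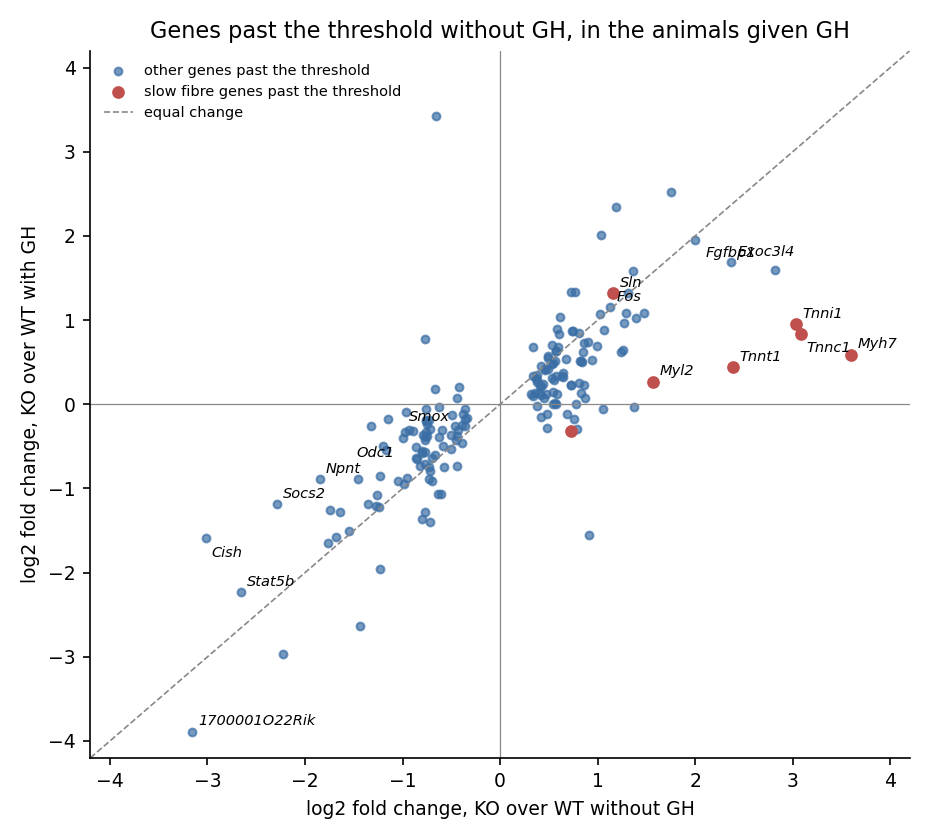
Log2 fold change of KO over WT for the 184 genes past the threshold without GH (x axis) against the same in the other animals, given GH (y axis), with slow fibre genes in red and the dashed line at equal change. The side of 0 is kept by 86 of the 98 genes that rose and by 81 of the 86 that fell. Slc25a25, Egr1, Tmem267 and Atp2a2 are among those that cross it. The slow fibre genes other than Sln lie below the line.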

How the data were processed

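The authors deposited signals of the MAS5 software, linear intensities that are scaled by array, for 12 arrays. Per the submitters' processing notes MAS5 was the tool, and its version and settings are not given in the sources used here. On every array the mean without the lowest and highest 2% of probe sets was 500. No detection calls were used. Signals became log2(signal + 25), 25 being the pooled 25th percentile. The 64 control probe sets, 932 with several symbols and 9160 with none were left out. Probe sets were named from the platform annotation, updated through RefSeq gene tables, with 162 symbols kept as annotated. The probe set with the highest mean stood for its gene, and genes with a mean above the 40th percentile (log2 6.253) were tested: 12654 of 18193.

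In R 4.3.3, limma 3.58.1 (statmod 1.5.0) fitted 1 mean per group (WT, KO, each without and with GH) over 12 arrays, with 8 residual degrees of freedom and eBayes with trend and robust settings. P-values are 2-sided and adjusted by Benjamini-Hochberg over all genes tested, with a threshold of 0.05. The same fit was run with the slow fibre index as a covariate, and on the 6 arrays without GH alone (4 residual degrees of freedom). The procedure was tested on simulated data. No test was run on lists of genes; they are described by counts and medians. Of 642 list genes 598 were on the array. The comparison, the members and the lists were chosen with earlier results of these data known.

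Named are the deleted genes; the 20 largest rises and falls without overlap; all genes called in both fits; list members past the threshold and up to 3 others with the smallest p; Igf1, Cish, Socs2, Socs3, Ghr, Odc1, Smox and 4 myosins; and 10 genes with the smallest p for the index slope. Others, such as Dnajc27, Palld and Polk, were chosen after their values were seen. Only 3 arrays per group limit the precision of every value.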

Additional observations from a re-analysis of the deposited data

Results flagged for a closer look

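For 13 of the genes named above or in the same lists, the difference between KO and WT changed with GH, by the interaction term of the 12-array fit, adjusted over all 12654 genes. The value given first is the log2 fold change of KO over WT with GH minus that without GH. The arrays with and without GH also differ in poly-A control signal (486.6 to 533.4 against 151.0 to 173.4) and in median signal (97.4 to 101.8 against 79.3 to 92.4), and the part of these in the differences was not tested.

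Egr1 differed by 4.10 ± 0.192 (adjusted p = 1.77e-08): it fell in KO without GH, and with GH had a signal of 853, 971 and 978 in WT and of 10488, 9689 and 10808 in KO. Slc25a25 differed by -2.47 ± 0.136 (adjusted p = 9.07e-08), with 5871, 5246 and 5472 in WT and 1940, 1704 and 1963 in KO with GH, the opposite of its order without GH. Tmem267 also turned, by 1.54 ± 0.155, from -0.77 to 0.77. Saa3, an acute phase protein, differed by 2.34 ± 0.314, from a value of -0.80 that did not pass to 1.54. Sh3rf2 differed by -1.12, from 1.06 to -0.06.

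Among muscle genes, Atp2a2 differed by -1.05 ± 0.175 (adjusted p = 0.00629), from 0.73 to -0.32, and Myod1 by 1.41, from -0.36 to 1.05, with WT 1 the highest of the arrays without GH at 3089. Azin1 differed by 1.09, from -0.23 to 0.86, and Fst by -1.06, from 0.45 to -0.61, neither effect of Fst passing alone. For Npnt (0.96), Socs2 (1.10) and Junb (0.98) the direction was the same in both settings: Npnt went from -1.85 to -0.89, Socs2 from -2.29 to -1.19 and Junb from 1.03 to 2.01. The endothelial gene Cldn5 differed by -0.97, from 0.31 to -0.66.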

How the results depend on the processing

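The counts in the report (98 higher, 86 lower, 7 slow fibre genes) stayed within 1.5 times under both other pseudocounts, both other filters, 3 other rules for probe sets, median centring and quantile normalization. Under the settings that follow 1 or more of these counts moved by more, except where said. The 6 arrays alone gave 23 higher, 16 lower and 1 slow fibre gene; the index as a covariate 20, 24 and 0; both together 0, 1 and 0. By limma at an unadjusted p below 0.05, the last held 449 higher, 317 lower and 4 slow fibre genes higher, and the index on 12 arrays also 4 slow fibre genes. eBayes without trend and robust settings gave 54 and 57, array weights 150 higher, and leaving out WT 1 and KO 3, chosen after the data were seen, 156 higher. Leaving out 1 array gave 66 to 131 higher, all within 1.5 times. It gave 56 (without KO 2) to 130 (without KO 1) lower, and 2 (without WT 3) to 8 slow fibre genes, with 3 without KO 3. Leaving out WT 1 or WT 2 alone moved none of these counts by more than 1.5 times.

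At an equal index (20 higher, 24 lower), the filter at the 60th percentile gave 34 and 37, the mean of all probe sets 12 and 11, plain eBayes 3 and 5, array weights 67 and 56, the 6 arrays alone 0 and 1, and leaving out WT 1 and KO 3 gave 37 lower. Leaving out 1 array gave 3 to 48 higher and 12 to 49 lower: 9 and 13 without WT 1, 3 and 12 without WT 2, 36 and 49 without KO 1, 35 higher without KO 2, and 48 and 49 without KO 3. Of the 184 genes that passed, 1 changed sign with the index: Smox, from -0.89 to 0.01, and to 0.02 with the index on 6 arrays. Of the named genes that had not passed, Eif4ebp2 (0.05 to -1.19, adjusted p = 0.0351) and Myl3 (0.41 to -1.20, adjusted p = 0.00416) changed sign and passed with the index, and others changed sign without passing, such as Csrp3 (0.72 to -0.78) and Lmod2 (0.18 to -0.77). Myl3 and Csrp3 are themselves part of the index, so their values with it are a description. The cause was not tested. No paired analysis was possible because replicate numbers were given in accession order and the labels share none between groups. Dim genes such as Kcnf1, near the floor of the array, have understated changes.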
